A study of Mus musculus with 12 samples.

Results

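Small noncoding RNA genes were followed in livers of mice given growth hormone (GH) or saline. The members were the rows of the gene count table whose symbol names a small nucleolar RNA (snoRNA), small Cajal body RNA (scaRNA), U-numbered RNA, 7SK RNA, signal recognition particle (SRP) RNA, small ribosomal RNA or microRNA, and whose mean was at least 10 counts over the 12 libraries. Of 38087 rows, 4073 carried such a symbol and 461 of these reached that mean. Rows that share a symbol were kept apart by their Ensembl identifier, since the 461 members carried 291 distinct symbols. The members were thus selected on their symbol and on their mean count over both groups. A row named SNORA70 stood exactly at the threshold and Snord70 just inside it with a mean of 10.1 counts, and just below it were Mir25 and Mir192, both with 9.92.

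The livers came from male C57BL/6j mice aged 13 to 16 weeks, and all of them, controls included, were germ-free, that is, raised without microorganisms. One group of 6 received recombinant human GH under the skin, 50 µg per mouse, and the other group of 6 received phosphate-buffered saline (PBS). Both were injected 2 times a day, at ZT 2 and ZT 14 (hours after lights on), for 5 days, and livers were taken at ZT 2. The labels do not say whether the dose is per injection or per day, nor, beyond numbering the libraries, whether each is a separate animal, and p-values then rest on the spread of these libraries, which may be technical. Human GH also binds the prolactin receptor, which limits it as a model of mouse GH. GH acts on hepatocytes through its receptor, JAK2 and STAT5B, and the comparison asks what repeated GH does to liver RNA in animals without a microbiome.

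SnoRNAs work in the nucleolus as guides: C/D box snoRNAs direct 2′-O-methylation of ribosomal RNA and H/ACA box snoRNAs direct pseudouridylation, each held by its own set of proteins, and scaRNAs do the same for spliceosomal RNAs in Cajal bodies. U1, U2, U4, U5 and U6 are the RNAs of the major spliceosome, and U11 and U12 belong to the minor one. 7SK RNA holds the elongation kinase P-TEFb inactive, and SRP RNA is the core of the particle that brings secretory proteins to the endoplasmic reticulum. Most mammalian snoRNAs and many microRNAs are cut out of introns of longer host genes, whereas 7SK, SRP RNA, 5S ribosomal RNA and U6 are made by RNA polymerase III.

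The libraries were made from total RNA after ribosomal RNA depletion and held 19523104 to 23278931 counts each. Their preparation did not select small RNAs, so a microRNA row is not a measure of the mature microRNA. It counts reads over the gene as annotated, and the class includes long host transcripts. Of the 88 microRNA members, 41 shared exon bases with another gene on the same strand, so reads of that gene can fall on them. Levels are given as CPM, counts scaled to a common library size with TMM factors. Differences are log2 fold changes, GH minus PBS, from edgeR's quasi-likelihood test over 14235 genes, with standard errors (SE) and Benjamini-Hochberg adjusted p-values over all of them, and a change was called at an adjusted p under 0.05. In bulk liver, fewer cells of a type and less RNA per cell cannot be told apart. Hepatocyte markers were abundant in every library (summed CPM of 5 markers 71517 to 108422). Of the marker lists, Alas2 of red cells was higher after GH (log2 fold change 1.14) and Dcn of stellate cells was lower (-0.38), while no other tested marker of these cells or of Kupffer cells, endothelium, cholangiocytes, lymphocytes and hepatocytes was called changed in this test. Summed red cell markers ran from 80.1 to 367 CPM in PBS and from 200 to 418 in GH. Lymphocyte markers summed to no more than 2.23 CPM in any library, and the part of other cells in the results below was not tested.

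Few members changed. Of the 452 members tested, 1 was higher and 14 were lower after GH, which is 3.32% of them, against 4.79% of all genes tested. In the lower direction the members stood at 3.10% against 2.52% of all genes, which is near the background, and in the higher direction at 0.221% against 2.27%. The 9 members that were not tested failed the filter on low counts. Without the adjustment for many genes, 19.0% of all genes stood at p under 0.05. Of the members, 47 (10.4%) were then lower and 8 (1.77%) higher, against 9.83% and 9.15% of all genes. The groups did not overlap for 10 members (2.21%), against 3.18% of all genes, and 9 of these 10 were among those called. The fold changes of the tested members leaned down, with 288 of 452 (63.7%) below 0 and a median of -0.08, while 49.9% of all genes were below 0 around a median of 0.00. The count of lower members depended on single libraries. It was 6 without GH 3, 7 without PBS 3, and 8 without GH 5 or PBS 4. Without GH 1, GH 2, GH 4 or PBS 5 it was 9. It was 11 without GH 6, 12 without PBS 6, 14 without PBS 2 and 16 without PBS 1. Over all genes, the count called in either direction, 682 with all libraries, ran from 434 to 854 in these fits. Without PBS 3 and PBS 5 together, a setting chosen after seeing the data, 4 members were higher, 7 were lower, and 54.7% of members were below 0.

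By class, 4 of 111 tested C/D box snoRNAs, 5 of 123 H/ACA box snoRNAs, 3 of 79 U-numbered rows, 1 of 15 SRP RNA rows and 1 of 87 microRNA rows were lower, and 1 U-numbered row was higher. None of 27 tested 7SK rows, 7 scaRNAs and 3 small ribosomal RNA rows was called by edgeR or by DESeq2, and at an unadjusted p under 0.05 edgeR had 1 row of 7SK, 1 scaRNA and no small ribosomal RNA row lower. The lean was strongest among U-numbered rows, with 62 of 79 below 0 (78.5%, median -0.15), and among H/ACA box snoRNAs, with 89 of 123 below 0 (72.4%, median -0.18). The U-numbered class was formed by symbol. It holds 45 U6 rows, and 2 U7, 2 U3 and 1 U8 rows that are not among the spliceosomal RNAs named above. C/D box snoRNAs were closer to even, with 67 of 111 below 0 (60.4%, median -0.04), as were microRNA rows with 50 of 87 (57.5%, median -0.06). SRP RNA rows leaned the other way, with 3 of 15 below 0 and a median of 0.17, which was 0.08 with 5 of 15 below 0 without GH 1 and 0.27 without GH 6. When libraries were scaled by their totals only, the median of all genes was -0.06 and the 7SK median turned from 0.03 to -0.03, while the medians of the other classes kept their sign in that scaling. The 7SK median was also negative without GH 1 (-0.03) or without PBS 4 (-0.01), and the C/D median was -0.01 without PBS 5 and -0.02 without GH 6.

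**Figure D1:**
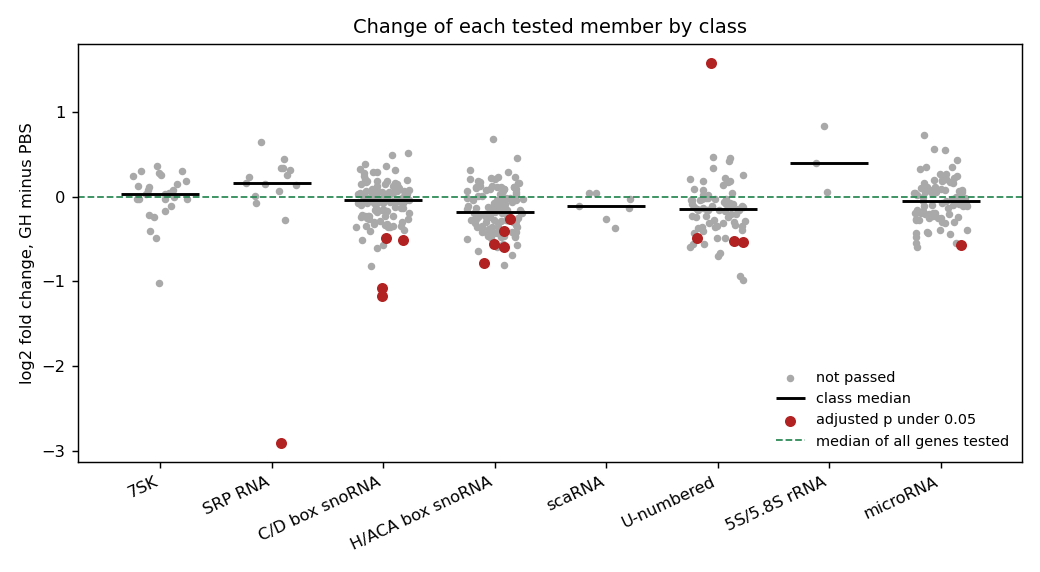
Log2 fold change (GH minus PBS) of each tested member, one point per member, by class, with black bars for class medians, red points for members with an adjusted p under 0.05 and a dashed line for the median of all genes tested. The H/ACA median lies at -0.18 and the U-numbered median at -0.15, and the only red point above 0 is a U1 row at 1.57.

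Summed over their rows, the classes differed in how far the group means lay apart, and the groups overlapped in each. The log2 ratio of the mean summed CPM, GH over PBS, was -0.02 for 7SK, -0.05 for C/D box, -0.15 for H/ACA box, -0.07 for scaRNA and -0.27 for U-numbered rows, and 0.23 for SRP RNA, 0.52 for microRNA and 0.77 for small ribosomal RNA rows. The microRNA ratio was 0.07 without Mir5105, which held 95.9% of that class. It was -0.06 without Mir5105, Mir5115, Mir22hg and Mir17hg. The 7SK class, of which the true gene Rn7sk held 97.6%, ran from 5806 to 6803 CPM in PBS and from 5735 to 6819 in GH. The C/D box class ran from 966 to 1296 CPM in PBS (median 1053) and from 948 to 1135 in GH (median 1057). The H/ACA class ran from 861 to 1187 in PBS (median 939) and from 849 to 931 in GH (median 897). The groups overlapped in all 3 classes, and the PBS libraries were spread more widely than the GH libraries in both snoRNA classes. PBS 3 (1130 CPM) and PBS 5 (1187 CPM) stood above the other 10 libraries in the H/ACA sum. Without these 2 libraries, 58.4% of H/ACA members were below 0 with a median of -0.08, and the C/D median turned positive at 0.04. U-numbered rows summed to 323 to 490 CPM in PBS and 263 to 336 in GH, with overlap. ScaRNAs summed to 128 ± 23.6 CPM in PBS and 122 ± 6.74 in GH (SD, n = 6 each), and the log2 fold changes of the 3 with the highest CPM were 0.05 for Scarna2, -0.27 for Scarna10 and -0.03 for Scarna13.

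**Figure D2:**
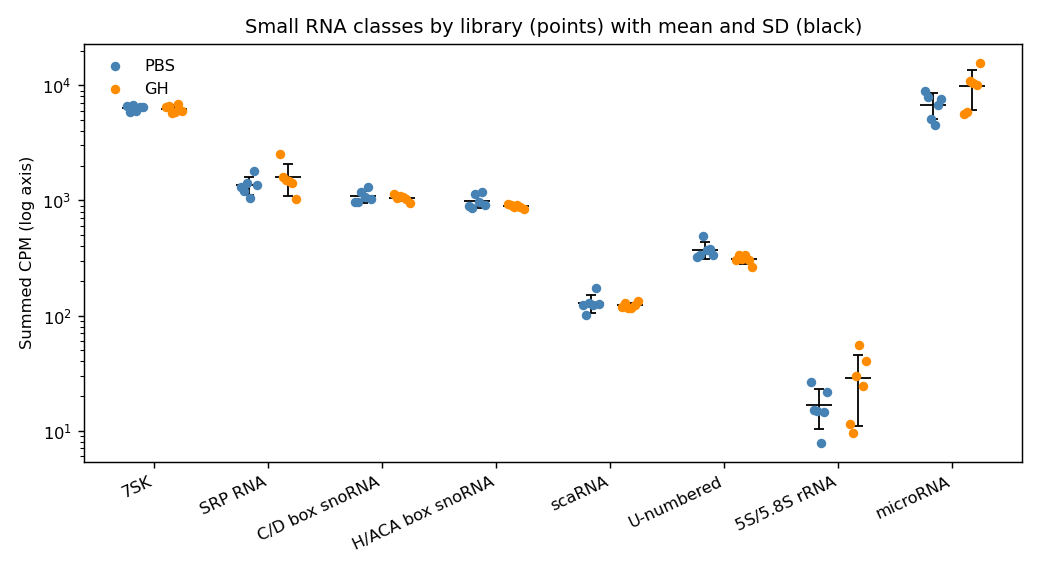
Summed CPM of the members of each class in each of the 12 libraries (log axis), PBS in blue and GH in orange, with the mean and SD of each group in black. The groups overlap in every class, and the microRNA and small ribosomal RNA sums are the most spread in GH, at 5586 to 15629 and 9.63 to 55.0 CPM.

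Among the H/ACA box snoRNAs, Snora23 had the smallest p of any member. It lay at 13.0 to 21.02 CPM in PBS (median 14.6) and at 8.98 to 9.95 CPM in GH (median 9.31), so every GH library was below every PBS library. Its log2 fold change was -0.79 (SE 0.12, adjusted p = 0.00135). Snora23 sits in an intron of Ipo7, which encodes the nuclear import receptor importin 7 and was itself lower by less (-0.22, adjusted p = 0.0438). A second H/ACA snoRNA of Ipo7, Gm25636 (symbol SNORA13), was at -0.39 and did not pass (adjusted p = 0.217).

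A pair of near-identical H/ACA snoRNAs under the symbol SNORA48, which guides pseudouridylation of ribosomal RNA, was lower from 2 different host genes. Gm25291, in an intron of the COPII coat gene Sec24a, ran from 12.1 to 19.7 CPM in PBS (median 13.3) and from 8.61 to 10.9 in GH (median 9.98), without overlap. It fell by 0.56 on the log2 scale (SE 0.12, adjusted p = 0.0102), while Sec24a stood at 0.02 (adjusted p = 0.932). Gm22988, in the translation factor gene Eif4a1, ran from 59.2 to 93.6 CPM in PBS and from 47.0 to 60.1 in GH, with overlap, and its log2 fold change was -0.41 (SE 0.11, adjusted p = 0.0394). All 144 bases of Gm22988 also lie in an annotated exon of Eif4a1 (-0.24, adjusted p = 0.0891), so reads of the 2 genes cannot be told apart there, and the call was lost in 7 of 12 fits with 1 library left out. The pair differs at 4 of 144 bases (97.2% identical), so its reads may be split between the copies. The annotated sequences are shown to make the pair comparable, with the ACA box near the 3′ end in capitals. ACA stood in the last 6 bases of 109 of 126 H/ACA members (86.5%), of 59.5% of the H/ACA rows below the count threshold and of 7.08% of the C/D members, reading the RNA strand. All 3 sequences are from the GENCODE M21 annotation of mm10, at chr7:110046364-110046547 on the plus strand for Snora23, chr11:51737779-51737922 on the minus strand for Gm25291 and chr11:69669635-69669778 on the minus strand for Gm22988.
Snora23: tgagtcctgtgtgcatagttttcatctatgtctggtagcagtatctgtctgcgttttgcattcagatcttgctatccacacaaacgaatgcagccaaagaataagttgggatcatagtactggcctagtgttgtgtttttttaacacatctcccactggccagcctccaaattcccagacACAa
Gm25291: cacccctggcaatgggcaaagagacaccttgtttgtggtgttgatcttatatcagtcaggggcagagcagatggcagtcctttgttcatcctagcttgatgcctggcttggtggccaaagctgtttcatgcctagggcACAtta
Gm22988: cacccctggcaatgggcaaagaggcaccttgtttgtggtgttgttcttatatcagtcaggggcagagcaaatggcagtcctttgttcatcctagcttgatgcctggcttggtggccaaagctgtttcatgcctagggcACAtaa

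The remaining H/ACA members that passed were smaller or less steady. Gm24336 (SNORA12) ran from 24.5 to 29.2 CPM in PBS and from 20.3 to 24.0 in GH, without overlap, at a log2 fold change of -0.27 (SE 0.07, adjusted p = 0.0347), while its host Cwf19l1 was at 0.23 and not called. Snora20 ran from 2.95 to 5.37 CPM in PBS and from 1.95 to 3.55 in GH, with overlap, at -0.60 (SE 0.16, adjusted p = 0.0473), in the chaperonin gene Tcp1. Dropping each library in turn (12 fits) removed the call of Gm24336 7 times and that of Snora20 10 times. Gm25776 (SNORA79), with the largest fall among H/ACA members (-0.80), did not pass (adjusted p = 0.0532). Snora73a (-0.20) and Snora74a (-0.33), which with Gm22988 had the highest CPM of the H/ACA members, were not called, with adjusted p-values of 0.253 and 0.212. The H/ACA row with the largest rise, Gm23172 (SNORA25, 0.68), was not called either (adjusted p = 0.248).

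Among C/D box snoRNAs, the largest falls were in members whose host genes fell too. Snord19 ran from 1.11 to 2.41 CPM in PBS (median 1.63) and from 0.547 to 0.943 in GH (median 0.778), without overlap. Its log2 fold change was -1.18 (SE 0.22, adjusted p = 0.00634), and its host Gnl3, which encodes the nucleolar GTPase nucleostemin, was at -0.69 (adjusted p = 0.00862). The other tested C/D members in Gnl3, Snord69 and Gm24916 (SNORD19B), were at -0.61 and -0.82 and did not pass. Gm23187 (SNORD86) ran from 0.953 to 1.58 CPM in PBS (median 1.22) and from 0.331 to 0.821 in GH (median 0.591), without overlap. It was at -1.08 (SE 0.25, adjusted p = 0.0187), inside Nop56, which encodes a core protein of C/D snoRNA particles and was at -0.52 (adjusted p = 0.0289). Snord110 and Snord57, also in Nop56, were at -0.33 and -0.07 and did not pass.

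Both called members are rare rows, with means of 26.7 and 19.1 counts, and every base of each lies in an annotated exon of its host, so their reads and those of the host transcript cannot be told apart. They are shown because they fell most, with TGANGA (a C box form) in the first 20 bases and CTGA (the D box) in the last 20 in capitals. Both strings, read on the RNA strand, were in 77 of 113 C/D members (68.1%), in 79.7% of the C/D rows below the threshold and in 0.794% of the H/ACA members. Snord19 lies at chr14:31016206-31016281 on the minus strand and Gm23187 at chr2:130277195-130277280 on the plus strand of mm10, and TGANGA is not in the first 20 annotated bases of Gm23187.
Snord19: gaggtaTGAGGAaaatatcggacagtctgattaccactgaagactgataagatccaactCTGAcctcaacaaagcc
Gm23187: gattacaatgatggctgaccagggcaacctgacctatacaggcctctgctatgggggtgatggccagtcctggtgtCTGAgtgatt

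Hspa8, which encodes a constitutive heat shock chaperone, holds 3 tested C/D members. Snord14e ran from 18.9 to 37.1 CPM in PBS and from 17.4 to 23.3 in GH, with overlap, at a log2 fold change of -0.51 (SE 0.14, adjusted p = 0.0443). Snord14d (-0.40) and Snord14c (-0.57) did not pass, and Hspa8 itself was at -0.36 (adjusted p = 0.141). Gm22486 (SNORD94), in Ptcd3, ran from 7.88 to 15.1 CPM in PBS and from 6.93 to 8.42 in GH, with overlap, at -0.49 (SE 0.13, adjusted p = 0.0458). Dropping each library in turn removed the call of Snord14e 11 times and that of Gm22486 10 times, and both share exon bases with their hosts. The C/D members with the highest mean CPM, Snord17 and a pair of rows under SNORD59 (Snord59a and ENSMUSG00000093245), were at -0.35, -0.04 and -0.06 and were not called. The row ENSMUSG00000093245 was classed by its symbol, while GENCODE M21 names it Mir677.

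Members in ribosomal protein genes lay on both sides of 0. Over 30 such hosts, 25 of 54 tested members were below 0, with a median log2 fold change of 0.02 and a range from -0.49 to 0.31, beside a median of 0.13 for the hosts. Chosen after their values were seen, the 4 members in Rpl13a ran from 0.08 to 0.28 in log2 fold change, beside 0.22 for Rpl13a itself, and the 5 members in Rpl4 ran from -0.02 to 0.12 beside 0.12. The 8 members in Gas5, a noncoding host gene, ran from -0.36 to 0.01 beside -0.08. Without PBS 5, 4 snoRNAs passed as higher, namely Snord33 of Rpl13a (0.40, adjusted p = 0.0304), Gm26457 (SNORD51) of Eef1b2 (0.37), Snora52 of Rplp2 (0.45) and Gm23455 (SNORA32) of Taf1d (0.35). With all libraries their adjusted p-values were 0.270, 0.112, 0.194 and 0.308.

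**Figure D3:**
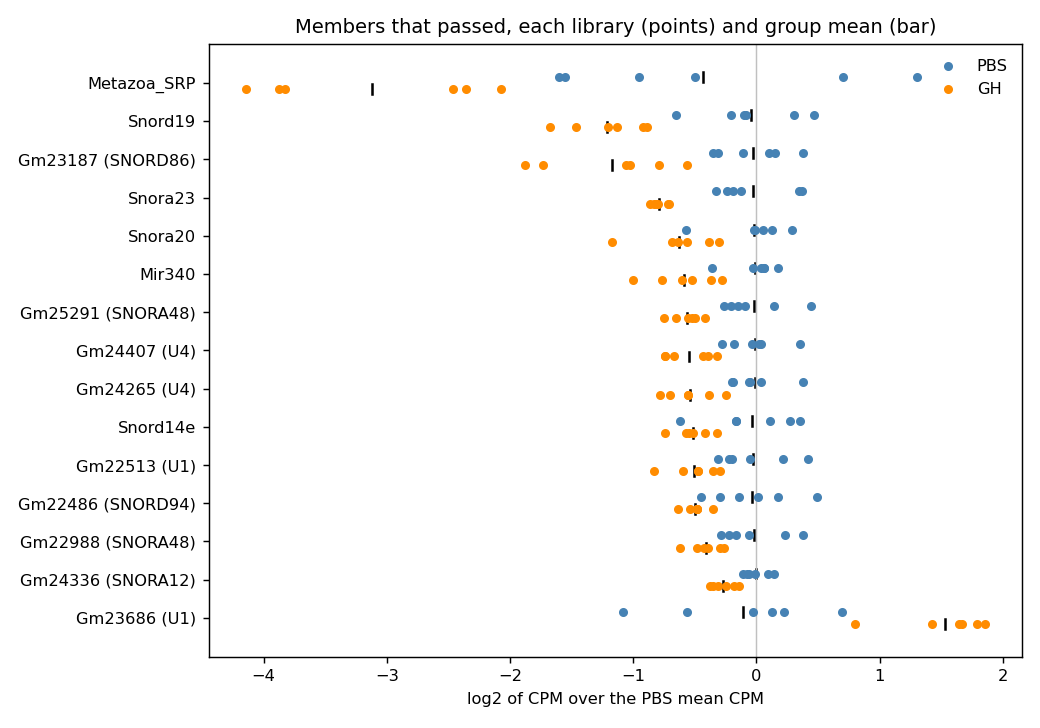
CPM of the 15 members that passed, as log2 of the value over the PBS mean, for each library (points, PBS in blue and GH in orange) with group means of the log2 values (bars). The U1 row Gm23686 is higher in all GH libraries, the other 14 are lower on average, and the groups overlap for 6 of the 15 rows.

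In 405 of the 461 members the gene lay inside a longer gene on the same strand, and for 382 both were tested. Member and host had fold changes of the same sign in 275 of these pairs (72.0%), with Pearson's r of 0.62 and Spearman's rho of 0.56 over 382 pairs and 290 hosts. These correlations are across genes and are a description: pairs share libraries, several members share a host, and reads of unspliced host RNA can fall on a member row. Among the 233 pairs with no base in another gene's exon on that strand, r was 0.60 and 160 pairs had the same sign. Of the 290 hosts, 1 was called higher and 10 lower, beside 2.27% and 2.52% of all genes tested. These hosts held 20 of the 382 pairs, so the 20 pairs are not independent, and 14 of them shared no exon base. All 20 pairs had the same sign, although in only 4 was the member called too. The members lay below their host in 251 of 382 pairs, and for H/ACA members without exon overlap in 54 of 67, with medians of -0.20 for the members and 0.00 for their hosts. Without PBS 3 and PBS 5 the median over all H/ACA members was -0.08.

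**Figure D4:**
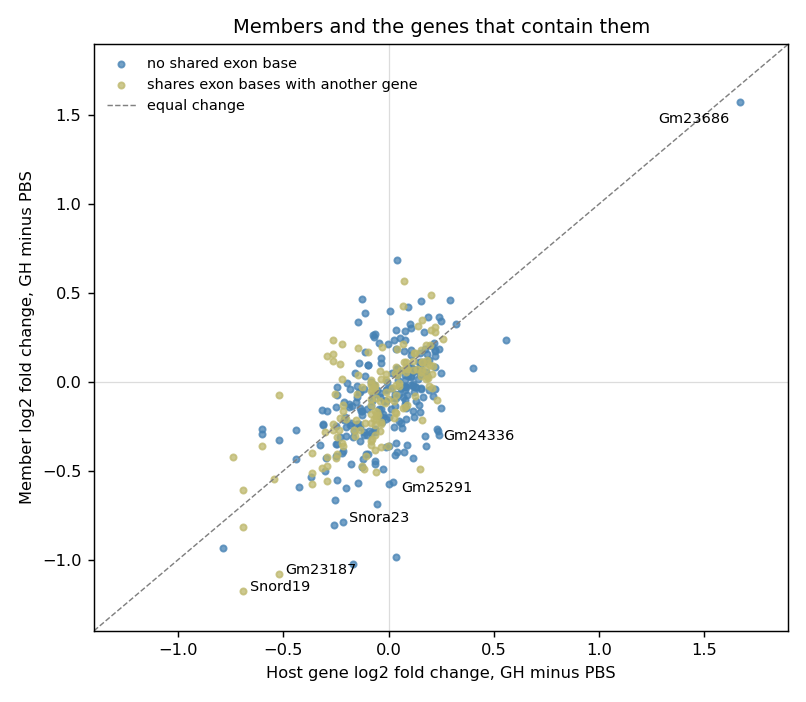
Log2 fold change of each member (vertical axis) against that of the gene that contains it (horizontal axis), GH minus PBS, for 382 pairs, with the dashed line at equal change and colours for members that do or do not share exon bases. Gm23686 and its host Cyp7b1 lie at 1.57 and 1.67, near the line, while Gm25291 and Snora23 lie well below it.

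The only member that was higher was a U1 copy. Gm23686 (symbol U1) ran from 3.51 to 12.0 CPM in PBS (median 7.71) and from 13.0 to 27.0 in GH (median 23.5), without overlap. Its log2 fold change was 1.57 (SE 0.27, adjusted p = 0.00695), and it kept the call in all 12 fits with 1 library left out. Gm23686 lies inside Cyp7b1 on the same strand, outside its annotated exons. Cyp7b1, the oxysterol hydroxylase of the alternative bile acid pathway, ran from 133 to 330 CPM in PBS and from 475 to 777 in GH and was at 1.67 (SE 0.21, adjusted p = 0.000935). Whether the reads on Gm23686 come from its own transcript or from unspliced Cyp7b1 RNA cannot be told apart.

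The U1 copy with the highest count moved the other way. Gm22513 (U1), in no longer gene, ran from 96.6 to 160 CPM in PBS (median 110) and from 67.4 to 97.7 in GH (median 86.2). The groups overlapped narrowly, the log2 fold change was -0.49 (SE 0.12, adjusted p = 0.0327), and the call was lost in 6 of 12 fits with 1 library left out. Both U1 rows are shown to let them be compared: they differ at 5 of 164 bases (97.0% identical). Gm22513 has a closer copy among the matching rows, at 99.4% identity, so reads may be split or lost among copies. The capitals mark ATTTNTG, a form of the Sm protein site, which was in 11 of 16 U1 members (68.8%), 45.9% of U1 rows below the threshold and 17.8% of U6 members on the RNA strand. Gm22513 lies at chr12:54696782-54696945 on the plus strand and Gm23686 at chr3:18177462-18177625 on the minus strand of mm10.
Gm22513: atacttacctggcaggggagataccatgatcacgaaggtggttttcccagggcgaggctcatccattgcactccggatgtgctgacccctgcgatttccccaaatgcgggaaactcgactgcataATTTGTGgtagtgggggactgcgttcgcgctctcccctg
Gm23686: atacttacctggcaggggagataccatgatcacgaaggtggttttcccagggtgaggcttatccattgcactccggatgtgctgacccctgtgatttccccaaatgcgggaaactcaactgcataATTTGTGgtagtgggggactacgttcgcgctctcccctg

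U4, which pairs with U6 before the spliceosome is activated, was lower from a pair of neighbouring copies on chromosome 5. Gm24407 (U4) ran from 17.6 to 27.3 CPM in PBS (median 21.2) and from 12.7 to 17.1 in GH (median 14.6). Gm24265 (U4) ran from 19.4 to 29.0 CPM in PBS (median 21.4) and from 13.0 to 18.8 in GH (median 15.2). In neither copy did the groups overlap. The log2 fold changes were -0.54 (SE 0.11, adjusted p = 0.00933) and -0.52 (SE 0.11, adjusted p = 0.0112), and both calls held in all 12 fits with 1 library left out. Neither copy lies in a longer gene. They differ at 2 of 141 bases (98.6% identical), so they are not independent measurements. They are shown with the Sm site in capitals, at chr5:115490254-115490394 for Gm24407 and chr5:115489459-115489599 for Gm24265, both on the plus strand of mm10.
Gm24407: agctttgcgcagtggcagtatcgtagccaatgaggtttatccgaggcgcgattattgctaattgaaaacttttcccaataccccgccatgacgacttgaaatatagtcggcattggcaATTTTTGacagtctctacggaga
Gm24265: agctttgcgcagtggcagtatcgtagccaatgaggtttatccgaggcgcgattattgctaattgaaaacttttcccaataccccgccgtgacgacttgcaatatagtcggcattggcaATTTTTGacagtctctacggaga

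Across the spliceosomal RNAs known to bind Sm proteins (U1, U2, U4, U5, U11 and U12), 26 of 29 tested rows were below 0, with a median log2 fold change of -0.30, beside 49.9% of all genes below 0. These rows carry only 6 symbols and include near-identical copies, so they are not independent measurements. Their summed level ran from 235 to 379 CPM in PBS and from 195 to 244 in GH, with overlap. PBS 3 was the library at 379 CPM, and the other PBS libraries ran from 235 to 280. The single rows of the minor spliceosome, U11 (-0.60) and U12 (-0.56), did not pass. The string ATTTNTG was in 4 of 6 U2, 2 of 3 U4 and 1 of 1 U12 members and in 0 of 2 U5 and 0 of 1 U11 members, so it does not define this group. U6, which binds other proteins of the Sm family (LSm) and carries 45 members, was nearer to 0, with a median of -0.11 and 32 of 45 below 0, and none was called by edgeR or DESeq2 (2 were lower at an unadjusted p under 0.05 in edgeR), the lowest being Gm22887 at -0.99 (adjusted p = 0.0813). All 45 U6 members lie inside longer genes, and so do 19 of the 29 rows of the group of 6 symbols above. The called rows Gm22513, Gm24407 and Gm24265 do not.

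U2, the RNA that pairs with the branch site of introns, had all 6 tested rows below 0, with a median log2 fold change of -0.19 and none called. A pair of U2 copies on chromosome 1, chosen here after their values were seen, traded places in 2 libraries. Gm25939 held 41.9 to 54.3 CPM in 10 libraries but 29.3 in PBS 3 and 13.8 in GH 6. Gm25360 held 2.86 to 5.27 CPM in the same 10 libraries but 79.0 in PBS 3 and 42.7 in GH 6. Thus Gm25360 took 72.9% and 75.6% of the pair's counts in PBS 3 and GH 6, against 5.47% to 9.46% in the other 10. The pair summed to 108 CPM in PBS 3, against 46.3 to 59.6 in all other libraries (56.5 in GH 6). In PBS 3 the copies therefore did not simply swap, and this sum is part of the high spliceosomal and U-numbered sums of that library. One such library was in each group, and the rows were not called (adjusted p = 0.808 and 0.797). The copies start 28768 bases apart and differ at 3 of 191 bases, counted from the 5′ end of Gm25939: C69T, A95G and C154T. They are shown with those positions in capitals, at chr1:72255008-72255198 for Gm25939 and chr1:72226240-72226430 for Gm25360, both on the plus strand of mm10. Whether the libraries differ in how much each copy is made, in the sequence of a copy or in how reads were assigned was not tested.
Gm25939: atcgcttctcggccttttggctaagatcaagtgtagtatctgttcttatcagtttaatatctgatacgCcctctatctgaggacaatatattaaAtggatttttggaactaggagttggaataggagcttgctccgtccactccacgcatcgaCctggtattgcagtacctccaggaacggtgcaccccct
Gm25360: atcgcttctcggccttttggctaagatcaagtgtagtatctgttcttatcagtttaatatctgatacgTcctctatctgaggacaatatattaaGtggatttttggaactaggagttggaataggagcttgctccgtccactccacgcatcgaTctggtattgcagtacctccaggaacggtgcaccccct

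Rn7sk, the 7SK RNA gene, had nearly the same level in both groups. It ran from 5664 to 6644 CPM in PBS (median 6296) and from 5587 to 6660 in GH (median 6089), and the groups overlapped over most of their range. The log2 fold change was -0.03 (SE 0.07, adjusted p = 0.895). Per kilobase of gene it stood at 18580 CPM, against 1200 for the SRP RNA row Rn7s6 and 625 for Gm22513 (U1). The other 26 tested 7SK rows, which are copies of lower level, had a median log2 fold change of 0.04. They ran from -1.02, for Gm26167 (adjusted p = 0.204), to 0.36, and the highest of them by CPM, Gm26035 and Gm24447, were at 0.03 and 0.15.

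The SRP RNA rows were high in 1 GH library. The 4 rows with the highest counts held 98.4% of the class, whose sum ran from 1052 to 1794 CPM in PBS (median 1333) and from 1023 to 2509 in GH (median 1488). GH 1 was the library at 2509 and GH 6 the one at 1023, so the groups overlapped. Gm24514, Rn7s6 and 2 rows that are not in GENCODE M21 were at 0.25, 0.33, 0.17 and 0.15 and were not called. The row ENSMUSG00000093220 under Metazoa_SRP, also not in that annotation, fell by 2.90 on the log2 scale (SE 0.63, adjusted p = 0.0236). It ran from 1.59 to 12.0 CPM in PBS (median 2.97) and from 0.274 to 1.15 in GH (median 0.610), without overlap, and PBS 1 and PBS 6 (12.0 and 7.91) were the highest. Its call was lost in 3 of 12 fits with 1 library left out, and its genomic neighbourhood was not analysed here.

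MicroRNA rows were dominated by Mir5105, which held 95.9% of the class. Mir5105 is not in GENCODE M21, so what its reads cover was not examined. Its level ran from 4171 to 8586 CPM in PBS (median 6840) and from 5261 to 15310 in GH (median 9879). GH 3, GH 4, GH 5 and GH 6 were above every PBS library, while GH 1 and GH 2 lay within the PBS range. The log2 fold change was 0.54 (SE 0.27, adjusted p = 0.311). Mir5115, at 23.4 to 58.3 CPM in PBS and 35.1 to 99.9 in GH, was at 0.73 and not called (adjusted p = 0.224). The 5.8S ribosomal RNA row n-R5-8s1 may reflect ribosomal RNA left after depletion, which was not checked. It ran from 5.72 to 24.5 CPM in PBS and from 7.38 to 52.4 in GH, and was at 0.83 (SE 0.50, adjusted p = 0.422). In GH 1 and GH 2 it lay within the PBS range, as Mir5105 did, and in GH 3, GH 4 and GH 6 it was above every PBS library. Its part in the Mir5105 level was not tested. The 5S rows n-R5s200 and n-R5s26 were at 0.05 and 0.40 and were not called.

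**Figure D5:**
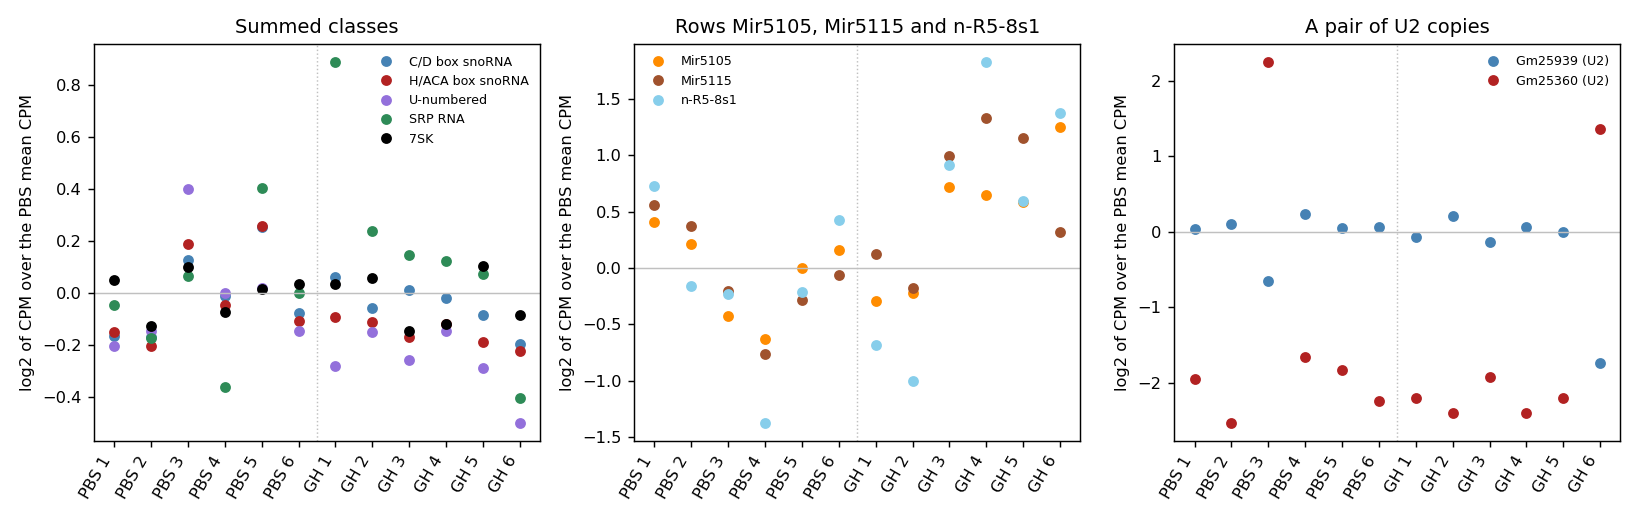
Level of each library as log2 of CPM over the PBS mean CPM, for 5 summed classes (left), for Mir5105, Mir5115 and n-R5-8s1 (middle) and for a pair of U2 copies (right), PBS libraries left of the dotted line. PBS 3 and PBS 5 are high in the snoRNA sums, GH 1 is high in SRP RNA, GH 3 and GH 4 are above every PBS library in all 3 rows of the middle panel, and the U2 copies trade places in PBS 3 and GH 6.

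Of the microRNA rows, Mir340 passed as lower. It ran from 3.44 to 4.98 CPM in PBS (median 4.57) and from 2.20 to 3.64 in GH (median 2.98), with narrow overlap. Its log2 fold change was -0.57 (SE 0.14, adjusted p = 0.0289) and its host Rnf130 was at -0.15 (adjusted p = 0.138). The call was lost in 6 of 12 fits with 1 library left out. Mir122, the most abundant microRNA of hepatocytes, had a mean of 17.7 counts over its precursor and a log2 fold change of 0.06 (adjusted p = 0.958). Without Mir5105, Mir5115 and the long host transcripts Mir22hg (0.19) and Mir17hg (-0.60), neither of which was called, the class summed to 264 ± 9.07 CPM in PBS and 253 ± 11.7 in GH (SD, n = 6 each).

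RefSeq mature sequences on GRCm38.p6 were found for 78 of 88 microRNA members, and 6 seeds (bases 2 to 8, in capitals) were shared by members. The first sequence below, mmu-miR-340-5p, is shown because Mir340 was called, and its seed is not among those shared. The families after it are shown because their members share a seed, and all but Mir15a and Mir16-1 lie in separate hosts. Mir103-1, Mir103-2 and Mir107, in the pantothenate kinase genes Pank3, Pank2 and Pank1, share a seed and stood at -0.24, -0.28 and -0.40 in log2 fold change (adjusted p between 0.293 and 0.630). Mir148b and Mir152, in the coatomer genes Copz1 and Copz2, were at -0.16 and 0.08. Mir26b and Mir26a-2, in the phosphatase genes Ctdsp1 and Ctdsp2, were at -0.11 and 0.11, and Mir15a and Mir16-1, both in Dleu2, were at -0.25 and -0.27. None of these family members was called by edgeR.
mmu-miR-340-5p: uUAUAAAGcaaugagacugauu
mmu-miR-103-3p: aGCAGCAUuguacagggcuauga
mmu-miR-107-3p: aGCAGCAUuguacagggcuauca
mmu-miR-148b-3p: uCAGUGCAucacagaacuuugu
mmu-miR-152-3p: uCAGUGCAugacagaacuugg
mmu-miR-26b-5p: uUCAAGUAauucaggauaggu
mmu-miR-26a-5p: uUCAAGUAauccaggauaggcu
mmu-miR-15a-5p: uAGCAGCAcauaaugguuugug
mmu-miR-16-5p: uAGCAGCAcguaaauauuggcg

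Genes that make, bind or process these RNAs, together with 13 noncoding snoRNA host transcripts, were examined in 10 lists. Of 103 genes tested, 1 was higher and 5 were lower (5.83%, against 4.79% of all genes), with a median log2 fold change of -0.13. In the lower direction this was 4.85%, against 2.52% of all genes, and in the higher direction 0.971%, against 2.27%. Of the 4 proteins of C/D snoRNA particles, Nop56 (-0.52) and Nop58 (-0.60, adjusted p = 0.0359) were lower, while the methyltransferase Fbl (-0.09) and Nhp2l1 (-0.13) were not called. Nop58 ran from 13.0 to 25.6 CPM in PBS and from 11.6 to 13.6 in GH, with overlap. The 6 proteins of H/ACA particles, among them the pseudouridine synthase Dkc1 (-0.21, adjusted p = 0.249), ran from -0.44 to 0.13 without a call. Of 8 tested SRP proteins and receptor subunits, Srp68 was lower at 18.8 to 22.8 CPM in GH against 24.7 to 28.6 in PBS, without overlap (-0.39, SE 0.07, adjusted p = 0.00415). Of 30 RNA polymerase III genes and factors, Polr3d was lower (-0.48, adjusted p = 0.0475), and of 11 other RNA handling genes the exonuclease Dis3 was (-0.49, adjusted p = 0.0210). Of 10 microRNA processing genes, the Dicer partner Prkra was higher (0.29, adjusted p = 0.0331). The lower count of these lists was 1 without GH 4, 2 without PBS 3, PBS 4 or GH 1, 3 without GH 2, GH 3 or GH 5, and 9 without PBS 1. No gene of the lists was higher (0) without any one of PBS 1, PBS 3, PBS 5, PBS 6, GH 1, GH 2, GH 3 or GH 5. The nuclear long RNA Malat1 ran from 3025 to 4679 CPM in PBS and from 4352 to 5484 in GH and was at 0.34, without a call (adjusted p = 0.0820).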

How the data were processed

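Total liver RNA in 12 libraries was sequenced, per the labels' protocols, from 250 ng with a stranded kit, ribosomal RNA depletion and 12 PCR cycles, in paired reads of 125 cycles. The submitters' processing notes name STAR 2.4.0i and mm10. The authors deposited raw counts of exonic reads per gene. How these were counted (program, strand, reads with several matches) is not stated in the sources used, and reads of near-identical copies can be split or lost.

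The members and lists were chosen with earlier results of these data known. Counts were fitted in R 4.3.3 with edgeR 4.0.16 (filterByExpr with a minimum count of 10, TMM, robust quasi-likelihood F test, two-sided, group only, Benjamini-Hochberg adjustment at 0.05). DESeq2 1.42.0 was an alternative. SE were the absolute log2 fold change over the square root of F. The common biological coefficient of variation was 0.168. The edgeR step was tested on simulated data. Classes, coordinates, hosts and exon overlaps came from symbols and GENCODE M21 (mm10), which held 442 of the 461 members. Mature microRNAs came from RefSeq (GRCm38.p6). A host was the smallest longer gene on the same strand that contains the member.

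The text names, by rule, every member called, the 3 members of highest mean CPM per class, members among the 5 largest and 5 smallest fold changes, rows at the count threshold, and their hosts. Other members of the same hosts, families and shared seeds, and those called only without 1 library, were chosen after their values were seen. Same-numbered libraries did not deviate together (correlations -0.20 to 0.18), so numbers were not treated as pairs.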

Additional observations from a re-analysis of the deposited data

Results flagged for a closer look

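In 12 of 122 sets of 6 libraries examined, the highest or lowest library stood far from the other 5. Chance flags about 1 in 20 such sets when they are independent. These sets share libraries and related rows, so the number of flags cannot be read against that rate. GH 1 was high in SRP and 7SK rows: Rn7s6 at 646 CPM (others 249 to 376), Gm23153 at 3.41 (0.483 to 1.41), Gm26035 at 44.3 (25.9 to 31.7) and Gm24447 at 46.5 (20.2 to 30.05). PBS 3 was high in the summed U-numbered rows at 490 CPM (323 to 377) and in Gm24265 (U4) at 29.0 (19.4 to 22.9). The U2 row Gm25939 was low in PBS 3 at 29.3 CPM (47.2 to 54.3) and in GH 6 at 13.8 (41.9 to 53.3). PBS 5 was high in Snord59a at 62.8 CPM (39.0 to 46.7) and Scarna13 at 38.7 (20.7 to 25.3). Among other genes, Hspa8, host of Snord14e, was high in GH 1 at 687 CPM (470 to 499), and Neat1 was high in PBS 2 at 1067 CPM (160 to 359).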

How the results depend on the processing

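All 15 called members passed with DESeq2 as well, and none changed sign in any fit. Of the 15, 7 kept the call in all 12 fits with 1 library left out (Snora23, Snord19, Gm23187, Gm25291, Gm24407, Gm24265 and Gm23686), and 8 kept it without PBS 3 and PBS 5. The 682 genes called became 1057 with DESeq2 and 391 with the replicate block, and 434 to 854 with 1 library left out (447 without GH 1 and 434 without GH 2 being the lowest). Members called lower were 7 with the replicate block, 7 without PBS 3 and PBS 5, and 6 to 16 with 1 library left out. In the main fit, 8 of the 268 tested members sharing no exon base were lower. This stands beside 14 of all 452 tested members and 2.52% of all genes. Members called higher were 4 without PBS 3 and PBS 5 and 1 to 5 with 1 library left out. Partner genes called higher were 0 with library totals only, without a filter on low counts, with the replicate block and without PBS 3 and PBS 5, and those called lower were 10 with DESeq2, 14 with library totals, 2 with the block and 1 without PBS 3 and PBS 5. With 1 library left out these ran from 0 to 2 and from 1 to 9. The cause was not tested. The replicate numbers did not pair the libraries (0 of 6 PBS libraries correlated best with their own number). With library totals only, 24.3% of all calls were higher, against 47.4%, and 19 members were lower. Leaving out 1 library, the log2 ratio of class means ran from -0.19 to -0.10 for H/ACA, -0.31 to -0.17 for U-numbered, -0.08 to 0.01 for C/D, -0.13 to 0.03 for scaRNA, 0.05 to 0.33 for SRP RNA, 0.34 to 0.64 for microRNA and 0.47 to 0.95 for ribosomal rows, and 7SK stayed between -0.05 and 0.00. Mir5105 held 95.9% of the counts behind the microRNA range. Depth left some members near the count threshold, and copies and hosts may share reads.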
